A study of Rattus norvegicus with 8 samples.

Results

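The glucocorticoid receptor gene Nr3c1 and 4 genes known to respond to glucocorticoids, Fkbp5, Sgk1, Dusp1 and Pdk4, were described in burned and unburned rat skin. They were taken by Ensembl identifier from a table of 26404 genes, and all 5 were present. The symbols come from the definition of the gene set, since the count table carries identifiers alone. The 5 identifiers, in the order above, are ENSRNOG00000014096, ENSRNOG00000022523, ENSRNOG00000011815, ENSRNOG00000003977 and ENSRNOG00000009565.

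Skin came from the dorsal side of the hind paw of Sprague-Dawley rats weighing 125 to 200 g, under urethane anaesthesia at 1.5 g/kg, and was excised after terminal anaesthesia with 40 mg sodium pentobarbital. In the 4 burn samples the paw had been dipped to the ankle in saline at 60 °C for 2 min, which gives a deep partial-thickness burn. The 4 control samples came from opposite paws dipped in saline at room temperature. Both groups shared the anaesthetic, a microdialysis probe and the terminal drug, and the paws of a rat share one blood supply. No untouched skin was analysed here. No label links a burned paw to its opposite paw, and neither the ages of the rats nor the time from burn to excision is given in the sources used here. Nothing in the labels says that the samples of a group were separate rats. A p-value here speaks of the spread among 8 samples, which may be partly technical.

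Glucocorticoids such as corticosterone, the main form in rats, enter cells and bind the receptor encoded by Nr3c1, which is held in the cytoplasm by HSP90 and its partner proteins. The bound receptor moves to the nucleus, where it attaches to glucocorticoid response elements and switches genes on or off. Fkbp5 encodes a partner protein of HSP90 that lowers the affinity of the receptor for hormone, and because the receptor induces it, it forms a short feedback loop. In skin, glucocorticoids are known for restraining inflammation and slowing repair, and keratinocytes can make them locally.

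Promoter windows are shown for the genes whose start regions hold one of the motifs searched, and for Fkbp5, the member that varied most among control samples. RefSeq sequence of build GRCr8 gave 8 windows for the 5 genes, 2 for Nr3c1, 3 for Sgk1 and 1 for each other gene, and the 250 bases before each gene start were read. Capitals mark TGACG or its full form TGACGTCA, the cyclic AMP response element, and TATAAA, the TATA box. Each motif was searched on both strands, and TGACG lies within TGACGTCA. The genome positions are those of GRCr8 and are not those of the build behind the counts.

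Dusp1, chr10:17184603-17184852, plus strand: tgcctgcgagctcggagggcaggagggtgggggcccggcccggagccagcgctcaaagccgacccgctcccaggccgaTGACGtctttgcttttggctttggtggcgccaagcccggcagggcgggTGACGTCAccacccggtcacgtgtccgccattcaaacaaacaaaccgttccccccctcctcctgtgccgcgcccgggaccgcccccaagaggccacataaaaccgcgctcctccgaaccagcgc

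Sgk1, chr1:24804832-24805081, minus strand: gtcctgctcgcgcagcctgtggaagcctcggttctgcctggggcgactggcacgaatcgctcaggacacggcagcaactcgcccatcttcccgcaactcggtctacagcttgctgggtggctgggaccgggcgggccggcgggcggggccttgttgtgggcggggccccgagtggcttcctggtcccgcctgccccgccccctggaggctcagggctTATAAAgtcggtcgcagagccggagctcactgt

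Fkbp5, chr20:6543556-6543805, minus strand: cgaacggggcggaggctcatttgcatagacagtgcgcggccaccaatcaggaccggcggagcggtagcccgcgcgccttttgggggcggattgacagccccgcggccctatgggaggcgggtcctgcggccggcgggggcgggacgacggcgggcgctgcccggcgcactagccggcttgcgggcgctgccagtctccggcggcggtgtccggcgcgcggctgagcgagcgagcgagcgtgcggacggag

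The Dusp1 window held 1 full TGACGTCA, beginning 124 bases before the gene start, and 1 further TGACG beginning 172 bases before it. TGACGTCA occurred in 1 of the 8 windows of the set and in 1.59% of the 33469 windows of the same length over all genes, and TGACG in 18.2% of them. A TATAAA began 33 bases before the Sgk1 start shown, and 1 of the 2 other Sgk1 windows held one too, against 12.9% of all windows. The half-site AGAACA of the glucocorticoid response element was in 0 of the 8 windows and in 17.5% of all windows. The full element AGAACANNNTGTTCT was likewise in 0 of the 8 and in 0.012% of all. The Fkbp5 window, 76.0% G and C, held none of these motifs. These are matches of letters in a short window, and nothing about binding was measured.

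Libraries held 13693811 to 26837925 counts. Burn replicate 3 stood apart, with 15354 genes detected against 17322 to 17547 in the other 7 libraries, so the main values that rest on it are also given without it. The tissue label was not checked against marker genes here, because identifiers other than the 5 could not be given symbols. The same holds for the other genes of the glucocorticoid pathway that had been listed for comparison, which were not analysed here.

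None of the 5 genes passed the test between burned and control skin, and in all 5 the burn and control values overlapped. By the edgeR quasi-likelihood test, with p adjusted over 14240 genes and a threshold of 0.05, the count was 0 of 5, where 21.9% of all genes tested were called (11.9% higher and 10.0% lower in burn). Groups did not overlap for 31.0% of all genes (15.4% higher and 15.6% lower in burn) and for 0 of the 5. At an unadjusted p under 0.05 the count was 1 of 5, Nr3c1, against 37.8% of all genes. At an adjusted p under 0.05, 0 of 5 passed with DESeq2, limma-voom or limma-voom with sample quality weights, which called 32.3%, 22.5% and 30.7% of all genes. Estimates were negative for 4 of the 5, with a median log2 fold change of -0.30, against 46.6% negative and a median of 0.06 over all genes tested. That count rested on burn replicate 3. Without it the estimates were -0.64 for Nr3c1, -0.43 for Fkbp5, 0.15 for Sgk1, 0.37 for Dusp1 and 0.07 for Pdk4. The median over all genes was then 0.03. All 5 genes were counted well enough to enter the test. In skin taken whole, fewer cells of a type and less RNA per cell cannot be told apart, and this applies to each value below.

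**Figure D1:**
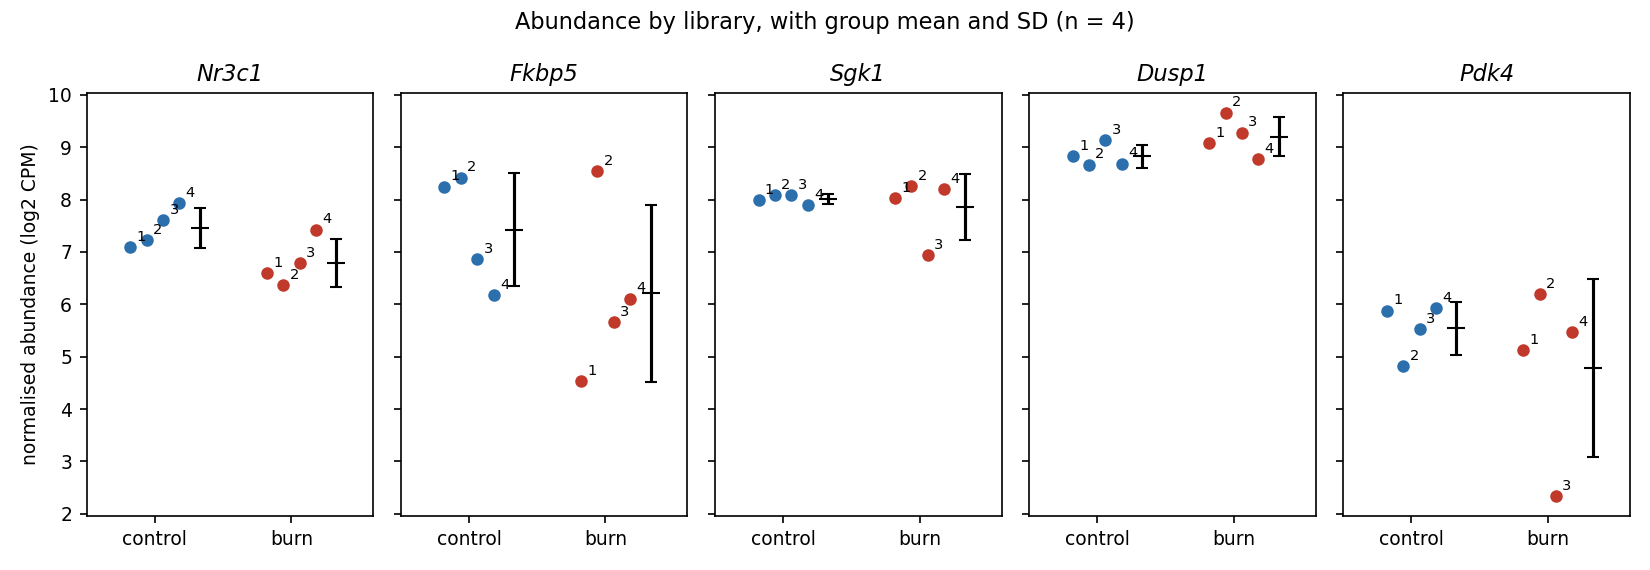
Normalised abundance in log2 CPM, the counts scaled to a common library total, of each gene, 1 point per library with its replicate number, blue for control and red for burn, with the group mean and SD (n = 4) at the right of each group. Burn and control points overlap in every panel, and the burn points of Fkbp5 and Pdk4 cover the widest ranges, with Fkbp5 highest in burn replicate 2 and Pdk4 lowest in burn replicate 3.

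Nr3c1, the receptor gene, had lower values in 3 of the 4 burned samples than in any control. In burn replicates 1 to 4 it stood at 96.6, 82.2, 111 and 172 CPM, scaled by TMM (edgeR's trimmed-mean factors that adjust for library makeup). Control replicates 1 to 4 gave 136, 149, 196 and 244 CPM. Only burn replicate 4 reached into the control range, above 2 of the 4 controls. The fitted burn level was 0.637 of the control level, a log2 fold change of -0.65 (SE 0.28), with an unadjusted 95% interval of -1.28 to -0.02. The edgeR unadjusted p was 0.0442 and the adjusted p 0.122, so the difference did not pass over all genes. Without burn replicate 4 the log2 fold change was -0.91 and the edgeR adjusted p 0.0411, in a fit that called 18.5% of all genes. The estimate was below 0 under each of the 15 other settings and sets of libraries, and passed in that 1 alone. For 362 genes, 2.54% of those tested, burn replicates 1 to 3 all lay below every control and burn replicate 4 did not. The same arrangement with burn replicate 1, 2 or 3 as the exception occurred at a further 1.50%, 5.02% and 4.29% of genes. The share for burn replicate 4 alone therefore understates how common such an arrangement was.

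Fkbp5, the feedback gene, varied most among the control samples, and it passed the test only with 1 burned sample left out. Burn replicates 1 to 4 had 23.0, 372, 50.6 and 68.9 CPM. The control replicates had 304, 343, 116 and 72.5 CPM. Thus 3 burned samples lay below every control, and burn replicate 2 lay above every control. Counting error is far smaller than the gap between burn replicates 1 and 2, whose exact 95% Poisson intervals were 20.3 to 26.0 and 362 to 382 CPM. Burn replicate 4 lay only just below control replicate 4, and their intervals, 65.0 to 73.0 and 69.4 to 75.7 CPM, overlapped. The fitted log2 fold change was -0.70 (SE 0.85), with an unadjusted 95% interval of -2.61 to 1.22 (edgeR adjusted p = 0.580). That interval, from 0.164 to 2.32 times the control level, holds large differences in both directions. The plain difference of mean log2 CPM was -1.22, since the fit works on the count scale, where burn replicate 2 weighs most. Without burn replicate 2 the log2 fold change was -2.14 and the edgeR adjusted p 0.0358, in a fit that called 25.3% of all genes. The arrangement of Fkbp5, with burn replicate 2 above all controls and the other 3 burned samples below them, occurred at 165 genes or 1.16% of those tested. With burn replicate 1, 3 or 4 as the high sample it occurred at a further 0.330%, 2.02% and 0.660%.

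Sgk1 encodes a kinase that the hormone induces and that raises sodium transport in epithelia. Control replicates gave 253, 273, 271 and 238 CPM, a tight set whose highest value was 1.15 times the lowest. Burn replicates gave 261, 306, 122 and 295 CPM. Burn replicate 3 lay far below all controls, burn replicate 1 inside their range, and burn replicates 2 and 4 just above it. At 3442 genes, 24.2% of those tested, burn replicate 3 lay below every control while the other 3 burned samples were neither all below nor all above the controls. With all libraries the log2 fold change was -0.07 (SE 0.27), the unadjusted 95% interval running from -0.69 to 0.55, or 0.620 to 1.46 times the control level (edgeR adjusted p = 0.871). Without burn replicate 3 it was 0.15, with an edgeR adjusted p of 0.409, so the sign of this small estimate rested on that library.

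Dusp1, which encodes a phosphatase that switches off MAP kinases, is induced by glucocorticoids and also within minutes by stress and growth signals. With all 8 libraries it was the only one of the 5 with a positive estimate. Burn replicates had 542, 808, 620 and 437 CPM, and control replicates 454, 406, 563 and 412 CPM. Burn replicates 2 and 3 lay above every control, and burn replicates 1 and 4 lay inside the control range. Burn was fitted at 1.31 times control, a log2 fold change of 0.39 (SE 0.23), with an unadjusted 95% interval of -0.12 to 0.90 (edgeR adjusted p = 0.239). The bounds of that interval, 0.919 and 1.87 times control, do not reach a 2-fold difference. The estimate was 0.17 (edgeR adjusted p = 0.686) when libraries were scaled by their totals alone, a scaling that moved the median of all genes from 0.06 to -0.15. It was also 0.17 by limma-voom with sample quality weights (adjusted p = 0.526).

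Pdk4 encodes a kinase that shuts off pyruvate dehydrogenase, so that less glucose is burned, and it responds to glucocorticoids and to fasting. Its burn replicates had 34.8, 73.3, 4.93 and 44.2 CPM. Its control replicates had 58.8, 28.3, 45.9 and 60.9 CPM. Burn replicate 3 was the low extreme, at 94 counts and an exact 95% Poisson interval of 3.99 to 6.04 CPM, while burn replicate 2 lay above every control. Pdk4 is thus also among the 24.2% of genes, given above for Sgk1, with burn replicate 3 below every control. The log2 fold change was -0.30 (SE 0.62), with an unadjusted 95% interval of -1.71 to 1.11 (edgeR adjusted p = 0.757). The bounds correspond to 0.305 and 2.16 times the control level. Without burn replicate 3 the estimate was 0.07, with an edgeR adjusted p of 0.897. The part that the low number of detected genes in burn replicate 3 has in the Pdk4 and Sgk1 values was not tested.

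**Figure D2:**
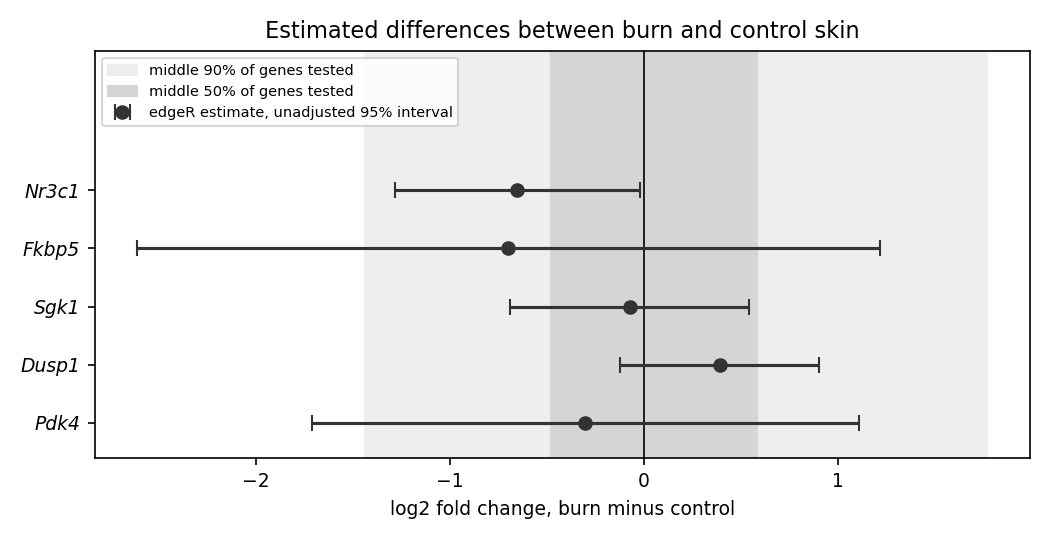
Fitted log2 fold change, burn minus control, of each gene with its unadjusted 95% interval (edgeR, 4 libraries in each group), over grey bands for the middle 50% (-0.48 to 0.59) and middle 90% (-1.44 to 1.77) of genes tested. All 5 points lie inside the wider band, and the interval of Nr3c1 alone stops short of 0.

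Of the genes tested, 41.6% had a larger absolute fold change than Nr3c1 and 38.5% a larger one than Fkbp5. The corresponding shares were 62.2% for Dusp1, 70.0% for Pdk4 and 92.3% for Sgk1. None of the 5 estimates was therefore unusual in size among the genes of these samples. The intervals for Sgk1 and Dusp1 stayed under a 2-fold difference in either direction, while those of Nr3c1, Fkbp5 and Pdk4 did not, and missing the threshold does not show that a level was the same in both groups.

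**Figure D3:**
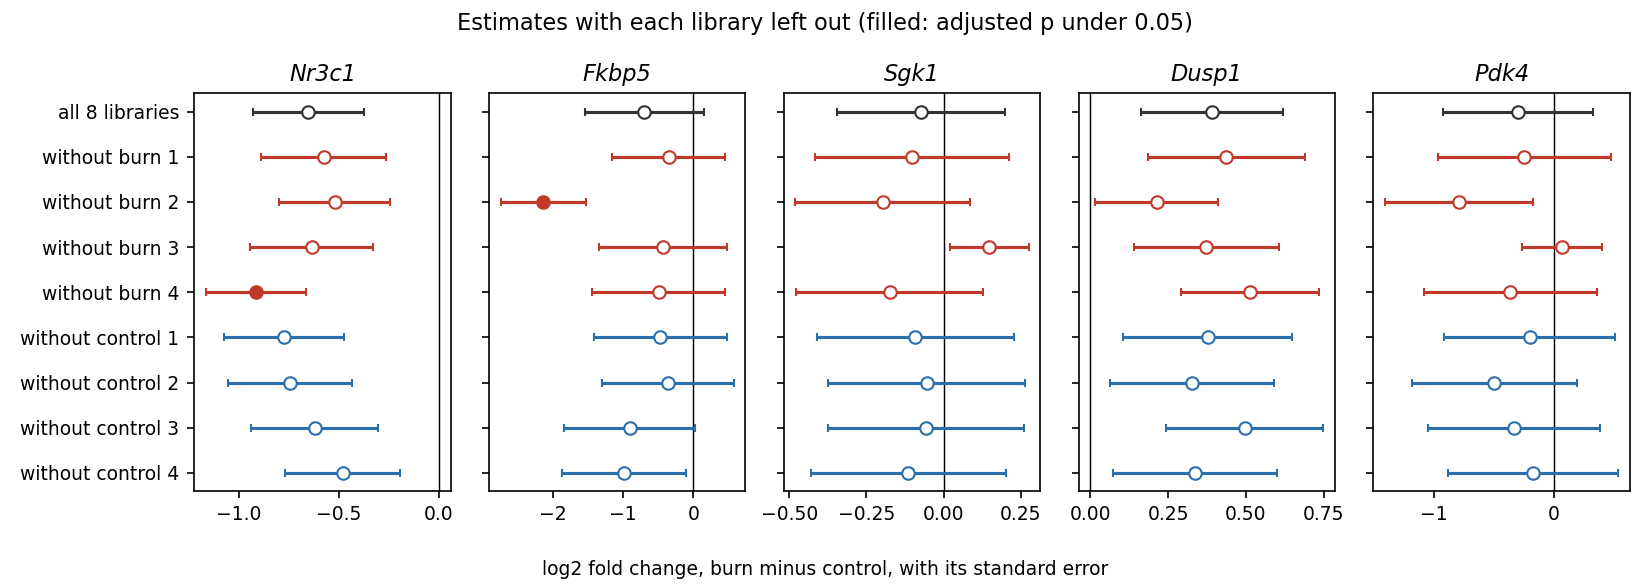
Log2 fold change, burn minus control, with its standard error, for each gene with all 8 libraries and with each library left out, each panel on its own axis, red where a burn and blue where a control library was left out, filled where the edgeR adjusted p was under 0.05. The 2 filled points are Fkbp5 without burn replicate 2 (-2.14) and Nr3c1 without burn replicate 4 (-0.91).

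Each responsive gene was also set against its receptor. The counts of each responsive gene per Nr3c1 count were taken within a library, which removes the scaling between libraries but keeps gene length, so that values are comparable for 1 gene across libraries and not between genes. Dusp1 had 5.61, 9.83, 5.60 and 2.54 counts per Nr3c1 count in burn replicates 1 to 4. In control replicates 1 to 4 it had 3.33, 2.72, 2.88 and 1.69. Burn replicates 1 to 3 lay above every control, and burn replicate 4 lay within the control range. The mean log2 ratio of Dusp1 was 2.40 ± 0.80 in burn and 1.37 ± 0.42 in control (SD, n = 4), a difference of 1.04 or 2.05-fold, for which no test was made. More of that difference lay in the receptor than in Dusp1, since mean log2 CPM differed by -0.67 for Nr3c1 and by 0.37 for Dusp1. The receptor part is shared by the ratio of every gene, and burn replicates 1 to 3 were those with Nr3c1 below every control. Of the genes tested, 66.5% had a lower fold change than Dusp1 itself. The share of all genes with a ratio difference this large was not counted, so it is not shown to be particular to Dusp1.

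For Sgk1 the ratios were 2.70, 3.73, 1.10 and 1.71 in burn and 1.85, 1.83, 1.39 and 0.975 in control, a difference of 0.51 log2 units. Here 2 of the 4 burned samples lay above every control and the other two lay within the control range. For Fkbp5 they were 0.238, 4.53, 0.457 and 0.401 in burn and 2.23, 2.30, 0.593 and 0.297 in control. The Fkbp5 difference of -0.55 log2 units lay well within an SD of 1.89 in burn and 1.46 in control (n = 4). The Pdk4 ratios were 0.361, 0.892, 0.0445 and 0.257 in burn and 0.431, 0.190, 0.234 and 0.250 in control, a difference of -0.09. The Pdk4 difference became 0.73 without burn replicate 3, 0.14 without control replicate 1 and -0.71 without burn replicate 2, so its sign rested on single libraries. The Fkbp5 difference ranged from -1.47 without burn replicate 2 to -0.05 without burn replicate 1, and the Sgk1 difference was 0.23 without burn replicate 2, 0.32 without control replicate 4 and 0.82 without burn replicate 3. That of Dusp1 stayed between 0.74 and 1.39 with any 1 library left out. The groups overlapped for all 4 ratios, whereas 22.4% of the 13631 other genes with a count in every library did not overlap in the same ratio (21.2% higher and 1.14% lower in burn).

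**Figure D4:**
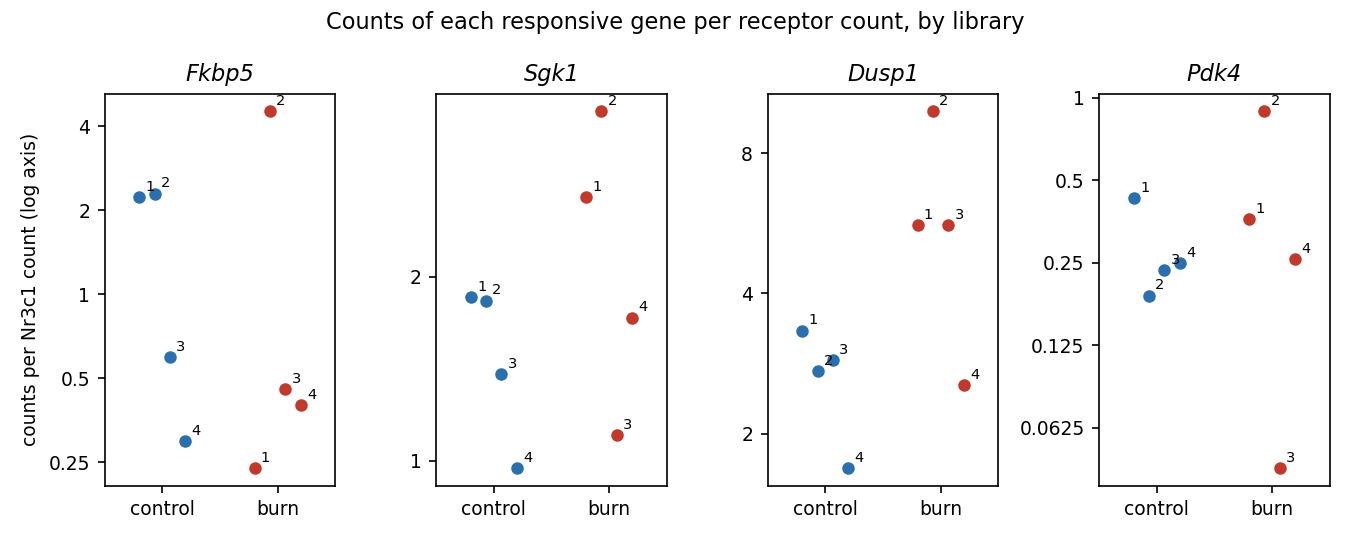
Counts of each responsive gene per Nr3c1 count within a library, on log axes that differ between panels, 1 point per library with its replicate number, blue for control and red for burn. Burn replicate 2 is the highest point in every panel, from 0.892 for Pdk4 to 9.83 for Dusp1, and 3 of the 4 burn points of Dusp1 lie above all control points.

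The 5 genes differed widely from one another in their spread within a group. Fkbp5 varied widely even among the unburned samples, with an SD of 1.08 log2 units (n = 4) and a 4.72-fold range from 72.5 to 343 CPM. Only 241 genes, 1.69% of those tested, had a larger SD among controls. At the other end, Sgk1 had a control SD of 0.09 (n = 4), and 91.4% of genes varied more. The control SD was 0.22 for Dusp1, 0.38 for Nr3c1 and 0.51 for Pdk4 (n = 4), around a median of 0.25 over all genes.

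Among burned samples Pdk4 and Fkbp5 each had an SD of 1.69 log2 units (n = 4), with 6.06% and 6.10% of genes varying more. Their burn values covered a 14.9-fold and a 16.2-fold range. Sgk1 had a burn SD of 0.62, Nr3c1 0.46 and Dusp1 0.37 (n = 4), around a median of 0.52 over all genes. All 5 genes varied more in burn than in control, as did 84.0% of all genes tested, so the count of 5 of 5 is close to the background. Without burn replicate 3 the burn SD of Pdk4 was 0.55, which 32.4% of genes exceeded, and that of Sgk1 0.12, and the median over all genes was 0.36. In those 7 libraries 68.4% of all genes and 5 of the 5 varied more in burn. Fkbp5 went the other way, with an SD of 2.02 without burn replicate 3 and of 0.81 without burn replicate 2.

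**Figure D5:**
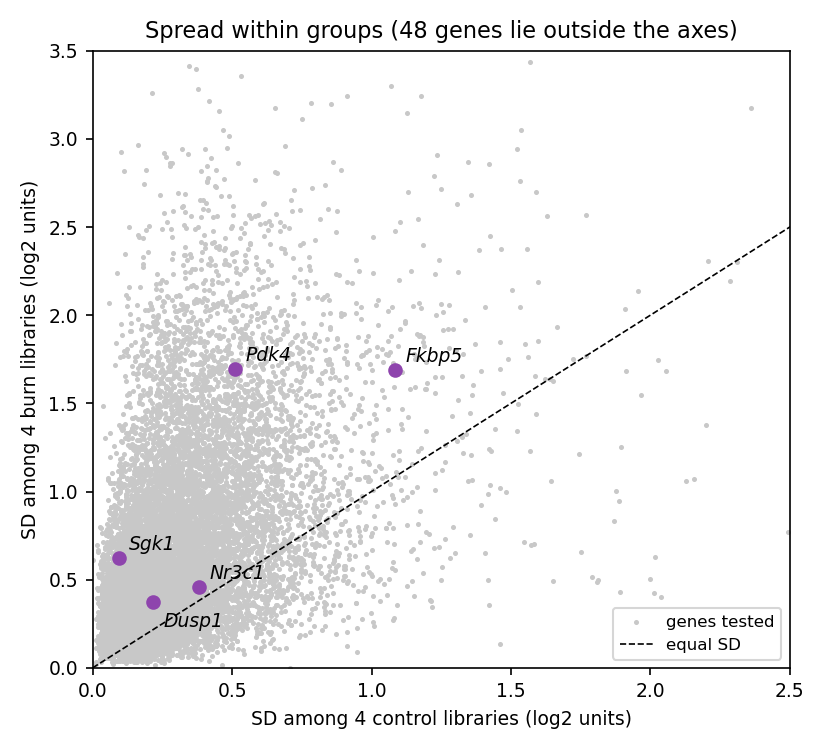
SD of log2 CPM among the 4 burn libraries against that among the 4 control libraries, 1 grey point per gene tested and purple points for the 5 genes, with a dashed line where both are equal and 48 genes outside the axes. All 5 genes lie above the line, Fkbp5 far to the right at a control SD of 1.08 and Sgk1 at the left edge at 0.09.

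The profiles of the 5 genes over the 8 libraries were also compared. Likeness was measured as the root mean square difference between log2 CPM profiles, each centred on its own mean, among 12192 other genes with a mean of at least 1 log2 CPM. This measure takes in the size of the swings as well as their order, so a gene with wide swings lies far from one with narrow swings even where their order is shared. The smallest difference between any pair of the set was 0.54 log2 units, between Sgk1 and Dusp1, and the largest was 1.48, between Fkbp5 and Nr3c1. Without burn replicate 3 the Sgk1 to Dusp1 difference was 0.27 and the Fkbp5 to Nr3c1 difference 1.55. With all 8 libraries the closest rank between members was Sgk1 seen from Pdk4, 1029 among the 12192 genes. Pdk4 seen from Sgk1 ranked 9000, and the other ranks ran from 3072 to 11686. Without burn replicate 3, Sgk1 ranked 2035 seen from Pdk4, behind Dusp1 at 1057, and it ranked 675 seen from Dusp1. By order alone, Sgk1 and Pdk4 ranked the 4 burned samples alike, and no other pair of the set did. The order ran from burn replicate 3 as the lowest through 1 and 4 to 2 as the highest. For Sgk1 the Poisson intervals of burn replicates 4 and 2 overlapped, at 286 to 303 and 297 to 315 CPM. Burn replicate 3 was the lowest burned sample at 39.7% of all genes tested, and burn replicate 2 the highest at 33.7%. The share of all genes with the full order was not counted. The gene nearest to Sgk1 of all those compared, ENSRNOG00000001682, differed from it by 0.07 log2 units, and the one nearest to Dusp1, ENSRNOG00000029441, by 0.14. The nearest genes to Nr3c1 and Pdk4 were 0.16 and 0.15 log2 units away, and the nearest to Fkbp5 0.68. These identifiers come without gene names in the files, and neither of those printed passed the edgeR test (adjusted p = 0.860 and 0.101).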

How the data were processed

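RNA enriched for poly(A) was sequenced from 4 burn and 4 control skin samples, grouped by the treatment label, with replicate numbers given in accession order. The deposited values are raw whole-number counts per Ensembl gene. TopHat2 2.0.9, HTSeq 0.5.4p3, edgeR, R 3.0.1, limma and the build Rnor_5.0 are named per the submitters' processing notes, while the role of each, the annotation and the strand setting are not stated in what was used here. Without a known strand setting, reads of overlapping or antisense genes cannot be told apart.

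The members and lists were chosen with earlier results of these data known. None of the 26404 identifiers could be matched in the reference table of 47357 rat genes, so the preset lists of other pathway genes and of cell type markers were not analysed here. The rule for named genes took the 5 members, the listed pathway genes and the nearest profile to each member, of which 2 are given by identifier. Promoter sequences were matched by symbol for all 5 members, from RefSeq GRCr8.

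The counts were tested with edgeR 4.0.16 in R 4.3.3 (TMM, default filter, robust quasi-likelihood test, group alone, two-sided), with Benjamini-Hochberg adjustment over 14240 genes. The standard error is the log2 fold change divided by the square root of F, and 95% intervals are unadjusted. Log2 CPM used a prior count of 2. The procedure was tested on simulated data. Alternatives were other scalings and filters, DESeq2 1.42.0, limma 3.58.1 and leaving out each library. No 2 libraries of a group were the same library deposited again, since the smallest chi-square between a pair was 28.3 times that of sampling noise. This does not show that they came from separate rats. Poisson intervals cover counting error only.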

Additional observations from a re-analysis of the deposited data

How the results depend on the processing

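No paired analysis was possible because the labels give no animal or pair number. Under the 7 other scalings, filters and tests, all 5 genes stayed above the threshold of adjusted p, in fits that called 13.5% to 32.3% of all genes, and the sign changed only for Sgk1, at 0.074 by limma-voom with sample quality weights. Leaving out 1 library at a time gave log2 fold changes of -0.91 to -0.48 for Nr3c1, -2.14 to -0.35 for Fkbp5, -0.20 to 0.15 for Sgk1, 0.21 to 0.51 for Dusp1 and -0.79 to 0.066 for Pdk4. Adjusted p fell under the threshold for Nr3c1 without burn replicate 4 (0.0411) and for Fkbp5 without burn replicate 2 (0.0358), and in no other of these refits, which called 8.37% to 29.3% of all genes. Without burn replicate 3 the sign changed for Sgk1 (0.15) and Pdk4 (0.066). Other estimates moved by more than 1.5 times without a change of call: Fkbp5 was at -1.20 by limma-voom and -1.65 with sample quality weights, Nr3c1 at -0.40 and Dusp1 at 0.17 with those weights, and Pdk4 at -0.83 by limma-voom. With library sizes alone Pdk4 was at -0.64, Sgk1 at -0.36 and Dusp1 at 0.17, and Sgk1 was at -0.13 with no filter and -0.15 by limma-voom. Over all genes the test called 1689 higher and 1426 lower. The number higher was 894 with library sizes alone, where 29.5% of calls were higher instead of 54.2%, and the number lower was 2203 by DESeq2. Leaving out 1 library gave 673 to 2314 higher and 546 to 1929 lower genes, with each count over 1.5 times smaller on omitting burn replicate 1, or a control replicate, whichever it was. The causes were not tested. The likeness without burn replicate 3 and the next count were added after the data were seen. The count of genes more variable in burn was 4 or 5 of 5 with any 1 library left out. With 4 samples a group, the intervals of Nr3c1, Fkbp5 and Pdk4 reach past a 2-fold difference, which could thus go undetected.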

Other observations

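Burn replicate 2 had the highest value among the 4 burned samples for each of the 4 responsive genes and the lowest for Nr3c1. It was the highest burn sample at 33.7% and the lowest at 25.8% of all genes tested. The pattern was noticed in the data, rests on 1 library, and no test of it was made. Among the controls, the samples with the higher Fkbp5 values, 304 and 343 CPM in replicates 1 and 2, had the lower Nr3c1 values, 136 and 149 CPM, while replicates 3 and 4 had 116 and 72.5 CPM of Fkbp5 and 196 and 244 CPM of Nr3c1. Dusp1, Sgk1 and Pdk4 did not divide the controls in that way. Burn replicate 1, the burned sample with the lowest Fkbp5 value, had less Nr3c1 than burn replicates 3 and 4. The division of the controls was also noticed in the data and was not tested. The share of all genes that divide them so was not counted. Of 18 screens of these genes and their ratios for 1 sample far from the other 3 of its group, 0 found one. The nearest, Sgk1 in burn replicate 3, fell just short of the cutoff, its gap to the next sample being 0.826 of the group's range. With 4 samples a group such a screen finds only extreme cases, so it does not show that no sample stood apart.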
